A study of Mus musculus with 6 samples.

Results

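The genes described here are 31 transcriptional targets and regulators of the tumour suppressor p53, the protein encoded by Trp53 in the mouse. They were chosen by symbol from a fixed list, and each was read from the probe set annotated to it alone, the brightest one where a gene had several. Of the 31 symbols, 29 had such a probe set, 1 each, among 19937 genes measured in all. Trp53 itself and Gdf15 had none and were not analysed here. The RNA came from primary granulocytes of C57BL/6J mice and was hybridised to 6 Affymetrix Mouse Gene 1.0 ST arrays, 3 labelled caffeine-plus and 3 labelled caffeine-minus. By the protocol, all cultures first had 15 mM caffeine for 4 hours and were washed, and all then received actinomycin D, which blocks transcription, at 2 µg/ml for a further 4 hours. The caffeine-plus cultures had caffeine again during that time and the caffeine-minus cultures did not, although the latter are labelled as untreated. The series asks which transcripts accumulate when caffeine inhibits nonsense-mediated decay. No array came from cells without actinomycin D, so the values do not give the effect of actinomycin D. They give the difference between cells with and without caffeine under the block. The protocol describes 1 plate for each condition, so caffeine and plate cannot be told apart. Nothing in the labels ties the replicates to separate animals or cultures. The p-values therefore rest on array-to-array spread alone, which may be technical. A gene said below to rise or fall was higher or lower in the caffeine-plus than in the caffeine-minus arrays. Change over time was not measured, and whether more RNA was made or less was lost was not tested.

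p53 is a transcription factor that is held low in resting cells because the ubiquitin ligase MDM2 marks it for destruction, with MDM4 as its partner. DNA damage activates the kinases ATM and ATR, which free p53 from MDM2, and p53 then induces genes of cell cycle arrest, DNA repair and death together with its own inhibitors, which close a feedback loop. Caffeine inhibits ATM and ATR as well as SMG1, the kinase of nonsense-mediated decay, and actinomycin D can itself activate p53. Neutrophils are short-lived cells that die by apoptosis.

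p53 binds pairs of a 10-base consensus, the p53 decamer, which reads the same on both strands. The 250 bases before the annotated transcription start were searched for exact matches to it. These are shown because they lie before genes that were higher and genes that were lower in the caffeine-plus cells. RefSeq promoters (build GRCm38.p6) were at hand for 22 of the 29 genes, and 7 of the 22 held at least 1 decamer, as did 8.2% of all 27025 genes with a promoter. They were 3 of the 9 genes with a promoter that were higher in the caffeine-plus cells (Mdm2, Ppm1d and Sesn1), 3 of 7 that were lower (Ccng1, Ei24 and Aen) and 1 of 6 that did not pass the test (Polk). In each sequence below the decamer is in capitals. The Mdm2 promoter, chr10:117710759-117711008 on the minus strand, holds its decamer from 186 bases before the start. The best known p53 sites of Mdm2 lie in its first intron and so outside this window. The Ppm1d promoter is chr11:85311004-85311253 on the plus strand, that of Ccng1 is chr11:40755287-40755536 on the minus strand, and that of Ei24 is chr9:36797335-36797584 on the minus strand, where the decamer ends directly before the start site. A match is a description of the letters and does not show that p53 binds there.
Mdm2: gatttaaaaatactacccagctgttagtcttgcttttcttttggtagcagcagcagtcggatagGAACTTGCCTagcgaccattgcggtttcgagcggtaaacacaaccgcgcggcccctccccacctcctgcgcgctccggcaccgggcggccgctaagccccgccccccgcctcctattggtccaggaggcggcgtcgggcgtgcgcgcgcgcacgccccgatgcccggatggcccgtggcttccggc
Ppm1d: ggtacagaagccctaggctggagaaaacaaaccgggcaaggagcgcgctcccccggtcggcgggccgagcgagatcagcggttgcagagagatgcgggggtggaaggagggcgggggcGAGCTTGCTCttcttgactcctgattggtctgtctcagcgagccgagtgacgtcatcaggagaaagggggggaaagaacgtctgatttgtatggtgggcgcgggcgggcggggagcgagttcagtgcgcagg
Ccng1: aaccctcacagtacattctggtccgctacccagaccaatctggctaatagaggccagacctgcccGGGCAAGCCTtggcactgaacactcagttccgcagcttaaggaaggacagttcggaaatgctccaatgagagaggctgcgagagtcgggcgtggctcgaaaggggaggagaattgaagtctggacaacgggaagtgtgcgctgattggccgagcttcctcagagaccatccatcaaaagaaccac
Ei24: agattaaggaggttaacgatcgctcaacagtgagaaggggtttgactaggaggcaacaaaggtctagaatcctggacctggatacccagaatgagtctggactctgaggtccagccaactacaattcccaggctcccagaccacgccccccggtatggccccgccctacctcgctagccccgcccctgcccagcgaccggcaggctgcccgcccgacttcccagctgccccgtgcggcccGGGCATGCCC

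Most of the p53 target genes differed between the groups, and they went both ways. With caffeine, 9 of the 29 were higher and 12 lower, and 8 did not pass the test (limma adjusted p under 0.05). Over all genes 16.2% were higher, 21.7% lower and 37.9% called in either direction. Bright genes are called more often than dim ones, and 24 of the 29 lay above the median level of all genes. Of those 24, 9 were higher and 10 lower, which makes 19 called, against 62.6% of the 9968 genes above the median (29.5% higher and 33% lower). The median log2 difference, caffeine-plus minus caffeine-minus, was -0.14 for the p53 targets and -0.04 for all genes. The median size of a difference regardless of sign was 0.47 against 0.17. Above the median level the p53 targets had a median difference of 0.01 and all genes one of -0.05, with median sizes of 0.53 against 0.35. At least 2-fold changes were few: Plk3 was higher (2.63% of all genes and 5.04% of those above the median level passed this limit upwards), and Ei24 and Ddb2 were lower (3.15% and 5.24% downwards). The groups did not overlap for 23 of the 29 genes, against 45.9% of all genes. Above the median level they did not overlap for 20 of the 24, against 70.2% of all genes there. Differences are given on the log2 scale with their standard error (SE), from 3 arrays per group, and levels are log2 values with their standard deviation (SD).

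**Figure D1:**
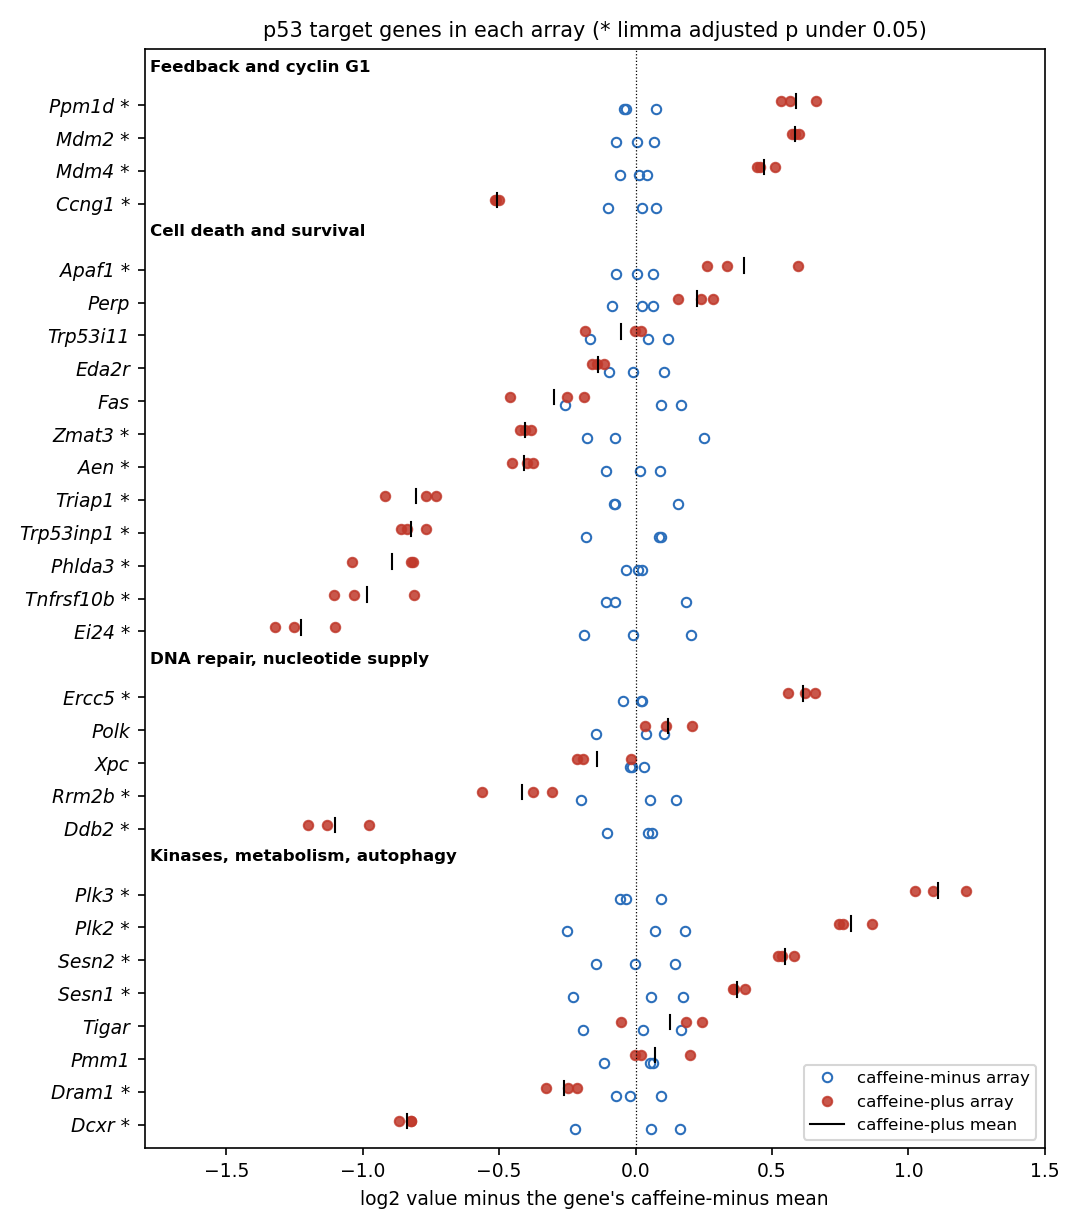
Each row is a p53 target gene and each point an array (filled, caffeine-plus; open, caffeine-minus), drawn as the log2 value minus the gene's caffeine-minus mean, with a bar at the caffeine-plus mean and a star for limma adjusted p under 0.05. Mdm2, Mdm4, Ppm1d and the Plk and Sesn genes lie to the right of 0, and most genes of cell death and survival lie to the left, Ei24 farthest at -1.23.

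The arrays had median log2 values between 6.49 and 6.60 and correlated at 0.986 to 0.992 within groups and 0.959 to 0.965 between them. All 12 listed markers of granulocytes, the labelled cell type, were measured, and their mean log2 value lay at 9.45 to 9.50 in the caffeine-plus and 10.10 to 10.20 in the caffeine-minus arrays, with all 12 lower. Over all genes 21.7% were lower, and 33% of those above the median level and 10.3% of those at or below it. Some markers on the further lists were lower as well. Eosinophils and basophils, which share a list with mast cells, are themselves granulocytes, so that list is not one of other cells alone. All 5 monocyte and macrophage markers fell (mean 7.32 to 7.35 against 8.22 to 8.46), as did 3 of 5 eosinophil, basophil and mast cell markers (8.83 to 8.89 against 9.51 to 9.66), 1 of 3 B cell markers (5.62 to 5.81 against 6.24 to 6.30), 1 of 3 erythroid markers (6.48 to 6.59 against 6.73 to 6.86) and 1 of 4 megakaryocyte markers (6.48 to 6.60 against 6.86 to 6.93). These means cover a whole list, also where 1 marker fell. The B cell marker that fell was Cd79b (log2 difference -1.72), while Cd79a (0.16) and Ms4a1 (-0.03) did not pass. The erythroid one was Alas2 (-0.65), while Epor (-0.07) and Slc4a1 (-0.09) did not pass. The megakaryocyte one was Ppbp (-1.08), while Pf4 (-0.12), Itga2b (-0.10) and Gp9 (-0.07) did not pass. Of 3 T cell markers 0 passed in limma (5.47 to 5.67 against 5.47 to 5.70). Of these, 1 had an unadjusted limma p under 0.05, and this was Cd3d, which was higher in the caffeine-plus arrays (0.24). Their part in the differences of the p53 target genes was not tested, and fewer cells of a type cannot be told apart from less RNA per cell in these bulk samples.

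Of the 4 measured genes of the p53 feedback loop, Mdm2, Mdm4 and Ppm1d were higher and Ccng1 was lower. All 4 lay above the median level, where 29.5% of genes were higher and 33% lower. In 70.2% of the genes at that level the groups did not overlap. Mdm2, the ubiquitin ligase that destroys p53, read 10.35, 10.32 and 10.33 in the caffeine-plus arrays and 9.75, 9.81 and 9.67 in the caffeine-minus arrays. Every caffeine-plus array lay above every caffeine-minus array, and the difference was 0.59 ± 0.06 (SE), or 1.5-fold (limma adjusted p = 9.4e-07). Mdm4, the MDM2 relative that binds p53 and blocks its activity, read 10.20, 10.26 and 10.19 against 9.76, 9.79 and 9.69, a difference of 0.47 ± 0.06 (limma adjusted p = 9.3e-06). Ppm1d, which encodes the phosphatase WIP1 that removes activating phosphates from p53 and ATM, read 9.29, 9.16 and 9.19 against 8.59, 8.70 and 8.58, a difference of 0.59 ± 0.07 (limma adjusted p = 6.9e-06). All 3 separated the groups without overlap. Ccng1, which encodes cyclin G1, a partner of protein phosphatase 2A in the control of MDM2, went the other way. It read 11.45, 11.45 and 11.47 against 11.99, 12.04 and 11.87 and was 1.42-fold lower (log2 difference -0.51 ± 0.05, limma adjusted p = 6.2e-07). The caffeine-plus arrays had an SD of 0.01 for both Mdm2 and Ccng1, while the caffeine-minus arrays had SDs of 0.07 and 0.09.

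The genes of cell death and survival were mostly lower, 7 of 12, with 1 higher and 4 that did not pass, and their median difference was -0.41. Of all genes 21.7% were lower, and of those above the median level 33%. Phlda3, Zmat3, Fas and Eda2r lay at or below the median level, where 10.3% of all genes were lower. Ei24, an endoplasmic reticulum protein linked to apoptosis and autophagy, read 9.33, 9.48 and 9.26 in the caffeine-plus arrays against 10.57, 10.78 and 10.39. No value of one group reached the other, and Ei24 was 2.34-fold lower (log2 difference -1.23 ± 0.09, limma adjusted p = 2e-08), a fall that 1.84% of all genes matched or passed. Tnfrsf10b, the mouse receptor of the death ligand TRAIL, read 6.12, 6.42 and 6.20 against 7.16, 7.42 and 7.12. It was 1.98-fold lower (log2 difference -0.98 ± 0.11, limma adjusted p = 2.8e-06), and its groups did not overlap. Phlda3, a PH-domain protein that competes with the survival kinase AKT at the membrane, read 5.93, 6.14 and 6.15 against 6.97, 6.93 and 6.99, a 1.86-fold difference. Trp53inp1, a nuclear and autophagy protein that promotes p53-dependent death, read 9.35, 9.44 and 9.37 against 10.31, 10.30 and 10.03, and was 1.77-fold lower. Triap1, a small mitochondrial protein that counters apoptosis, also went down, with 8.41, 8.37 and 8.22 against 9.29, 9.06 and 9.06, or 1.75-fold. The lower genes thus included one that protects cells as well as genes that promote death.

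Smaller falls were found for Aen, an apoptosis-linked nuclease (log2 difference -0.41 ± 0.09, limma adjusted p = 0.0017), and Zmat3, an RNA-binding zinc finger protein (-0.40 ± 0.12, limma adjusted p = 0.011). Zmat3 read 6.77 in caffeine-minus array 1 and 6.44 and 6.34 in the other arrays of that group, and without array 1 the difference was -0.28 and no longer passed (limma adjusted p = 0.070). Apaf1, the scaffold of the apoptosome that activates caspase-9, was the single gene of this group that was higher. It read 9.54, 9.88 and 9.62 against 9.34, 9.29 and 9.21, a difference of 0.40 ± 0.08 (limma adjusted p = 0.0011).

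Fas, the receptor of the death ligand FASL, read 5.80, 5.60 and 5.87 against 6.15, 5.80 and 6.22. Its groups overlapped and it did not pass (log2 difference -0.30 ± 0.13, limma adjusted p = 0.077), but it passed without caffeine-minus array 2 (-0.43, limma adjusted p = 0.012). Perp, a membrane protein of cell junctions that takes part in p53-dependent death, differed by 0.23 ± 0.09 (limma adjusted p = 0.065) with every caffeine-plus array above the others. It passed after quantile normalization (0.30, limma adjusted p = 0.012), once each array was centred on its median (0.29, limma adjusted p = 0.026) and when only genes above the median level were tested (limma adjusted p = 0.037). Eda2r, a receptor of ectodysplasin, differed by -0.14 ± 0.10 without overlap of its groups, and Trp53i11, a gene first found as p53-induced, by -0.05 ± 0.09 with overlap (0.0040 with arrays centred on their medians). Their 95% intervals ran from -0.36 to 0.08 and from -0.25 to 0.14.

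**Figure D2:**
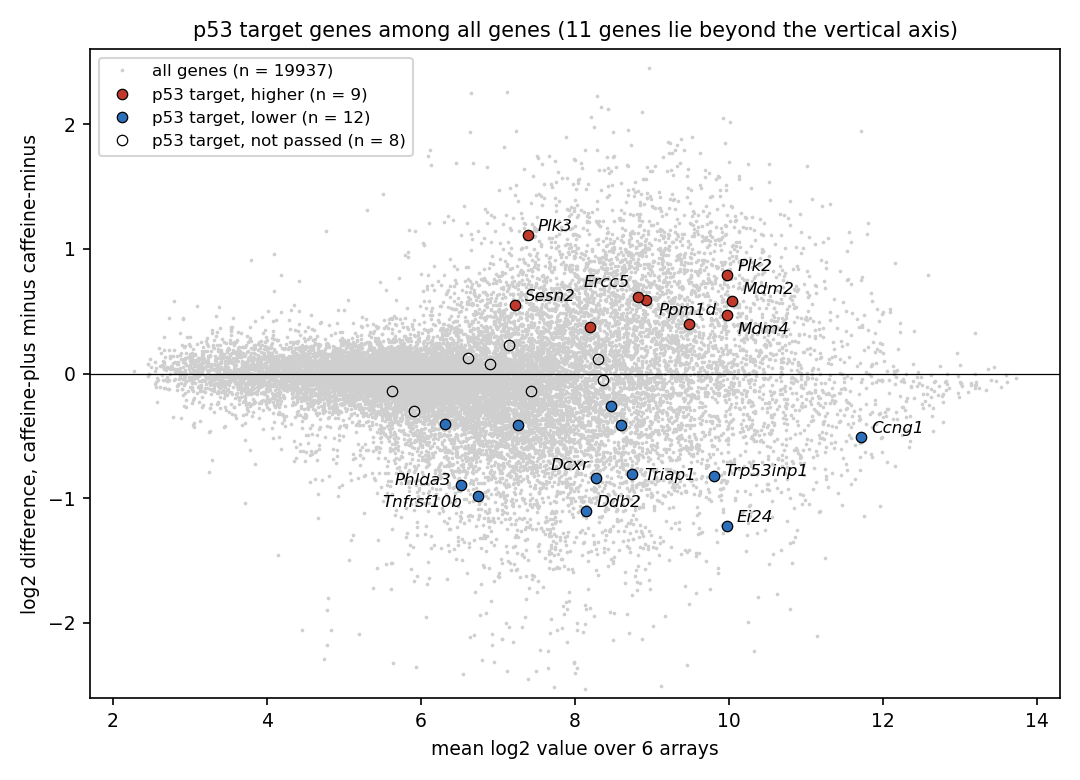
The log2 difference between the groups (vertical axis) is plotted against the mean log2 value over 6 arrays (horizontal axis) for 19937 genes, with 11 genes beyond the vertical axis. The 9 p53 targets that were higher and the 12 that were lower are filled, the 8 that did not pass are open, and few of the 29 sit among the dim genes, where differences are small.

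The DNA repair genes split. Ddb2, the damage-recognition protein of nucleotide excision repair, read 7.72, 7.57 and 7.50 in the caffeine-plus arrays against 8.76, 8.74 and 8.59. The groups lay far apart and Ddb2 was 2.15-fold lower (log2 difference -1.10 ± 0.09, limma adjusted p = 5.2e-08), a fall that 2.4% of all genes matched or passed. Rrm2b, the p53-induced subunit of ribonucleotide reductase that supplies nucleotides for repair, was 1.33-fold lower (-0.42 ± 0.10, limma adjusted p = 0.0026), with 8.24, 8.50 and 8.43 against 8.95, 8.86 and 8.60. Ercc5, the endonuclease XPG that cuts beside the lesion in the same repair pathway as Ddb2, was 1.53-fold higher. It read 9.13, 9.16 and 9.07 against 8.53, 8.46 and 8.53 (0.61 ± 0.07, limma adjusted p = 3.3e-06). Xpc, the other damage sensor of that pathway, differed by -0.14 ± 0.09 and the translesion polymerase gene Polk by 0.12 ± 0.09, both with overlapping groups and limma adjusted p of 0.27 and 0.36.

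The Polo-like kinase genes had the largest positive differences of the 29. Plk3, a stress kinase that phosphorylates p53, read 8.04, 7.92 and 7.86 against 6.92, 6.77 and 6.80. The groups stood apart by 2.16-fold (log2 difference 1.11 ± 0.09, limma adjusted p = 8.2e-08), and 1.9% of all genes rose at least as far. Plk2, a related kinase of centriole duplication, read 10.44, 10.32 and 10.34 against 9.65, 9.76 and 9.32 and was 1.73-fold higher (0.79 ± 0.09, limma adjusted p = 2.9e-06). Both sestrin genes, whose products restrain mTORC1 and protect against oxidants, were higher too. Sesn2 read 7.47, 7.48 and 7.53 against 6.95, 7.09 and 6.80 (0.55 ± 0.10, limma adjusted p = 0.00022). Sesn1 read 8.42, 8.37 and 8.37 against 8.19, 8.07 and 7.78 (0.37 ± 0.10, limma adjusted p = 0.0059). For Plk2, Sesn1 and Sesn2 the caffeine-minus arrays spread more than the caffeine-plus arrays, with SDs of 0.23, 0.21 and 0.14 against 0.07, 0.03 and 0.03.

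The related pairs among the 29 thus moved in the same direction, and the size of the movement was compared within arrays. Mdm2 rose 0.12 further than Mdm4, Plk3 0.32 further than Plk2, and Sesn2 0.17 further than Sesn1. Each of these 3 comparisons gave p = 0.1 in an exact two-sided permutation test, the smallest p that 3 arrays against 3 can give, and 0.1 after Benjamini-Hochberg adjustment over the 3 pairs. In each pair the difference of the first gene minus the second was higher in every caffeine-plus array than in every caffeine-minus array.

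Among genes of metabolism and autophagy, Dcxr, a reductase of the xylulose pathway, read 7.87, 7.82 and 7.87 against 8.75, 8.47 and 8.85. It was 1.79-fold lower (log2 difference -0.84 ± 0.10, limma adjusted p = 2.7e-06). Dram1, a lysosomal membrane protein that links p53 to autophagy, was 1.2-fold lower (-0.26 ± 0.08, limma adjusted p = 0.013). This was the weakest call of the 29, and it was lost without caffeine-plus array 2 (limma adjusted p = 0.077), without caffeine-minus array 1 (0.052) and with arrays centred on their medians (0.053). Tigar, a fructose bisphosphatase that slows glycolysis, differed by 0.12 ± 0.12 (limma adjusted p = 0.48), and Pmm1, a phosphomannomutase, by 0.07 ± 0.10 (limma adjusted p = 0.66). Both had overlapping groups, and their 95% intervals ran from -0.12 to 0.37 and from -0.14 to 0.29.

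The genomic span of a gene played no part in the choice of the genes. In the reference annotation the 9 higher genes had a median span of 34.3 kb and the 12 lower genes one of 17.4 kb. Over all genes the same order was seen, with 36.5 kb for 3224 higher and 13.8 kb for 4313 lower genes. Sesn1 (97.9 kb) and Apaf1 (93.4 kb) were the longest and both were higher, and Triap1 (2.32 kb), Dcxr (2.74 kb) and Phlda3 (3.05 kb) were the shortest and all were lower. Plk3 (5.31 kb) and Plk2 (5.8 kb) broke the order, being short and higher. Across the 29 genes the rank correlation of span with difference was 0.23 (Spearman), against 0.19 across 19851 genes. It is a description across genes, which share the same arrays.

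**Figure D3:**
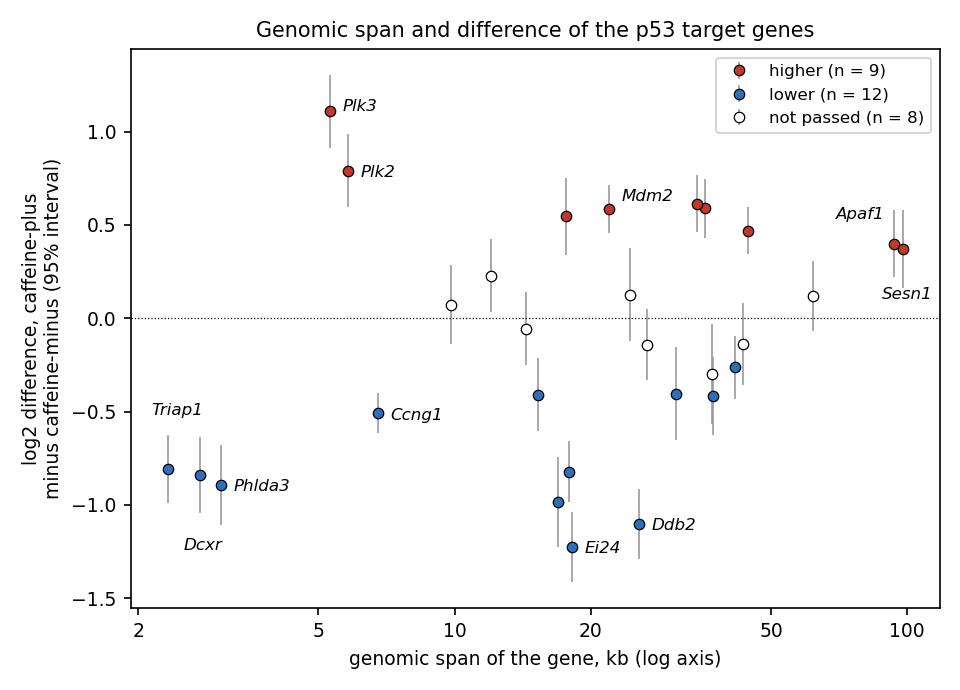
The genomic span of each p53 target gene in kb (horizontal, log axis) is plotted against its log2 difference with the 95% interval of the limma fit (vertical bars), by call. The shortest genes, Triap1, Dcxr and Phlda3, lie below 0, Plk3 and Plk2 lie above it at 5.31 and 5.8 kb, and the longest genes, Apaf1 and Sesn1, lie above it as well.

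The spans of 10 of the 29 genes overlap that of another annotated gene in the annotation, and whether signal is shared was not tested. An overlapping gene with a probe set of its own was measured in 5 cases. Acp2, which overlaps Ddb2, also fell (log2 difference -0.87 ± 0.10), and so did 4930429B21Rik, which overlaps Zmat3 (-0.48 ± 0.16). Ikbip, which overlaps Apaf1, fell (-0.72 ± 0.10) while Apaf1 rose. Tctex1d4 and Washc3, which overlap Plk3 and Dram1, differed by 0.14 ± 0.10 and -0.09 ± 0.12 and did not pass.

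Beyond these targets, most measured genes of a second list, of p53 regulators, were higher in the caffeine-plus cells. The list holds p53's kinases, ubiquitin-pathway enzymes, acetylases and binding partners, and the p53 relatives Trp63 and Trp73. It was drawn up with earlier results of these data known, so its counts describe these data and test nothing. Of 33 measured regulators, 19 were higher, 3 lower and 11 did not pass, with a median difference of 0.29. Over all genes the shares were 16.2% higher and 21.7% lower, and 29.5% and 33% above the median level, where 29 of the 33 regulators lay. The 4 with the smallest p all rose. Usp7, the deubiquitinase that stabilises both p53 and MDM2, read 11.38, 11.38 and 11.33 against 9.71, 9.69 and 9.65 and was 3.2-fold higher (log2 difference 1.68 ± 0.05). Sirt1, which deacetylates p53, was 3.33-fold higher (1.74 ± 0.08), Crebbp, which acetylates it, 2.95-fold (1.56 ± 0.06), and Ing1, a chromatin protein that binds p53, 2.3-fold (1.20 ± 0.07), each with limma adjusted p of 4.1e-09 or less. The 3 lower regulators, named after their values were seen, were Setd7 (-0.22 ± 0.08) and the ribosomal protein genes Rpl5 (-0.13 ± 0.04) and Rpl23 (-0.09 ± 0.03). None of the 3 passed with arrays centred on their medians, where 19 regulators were higher and 0 lower. Without single arrays the count of lower regulators ran from 0 to 3, and it was 0 without any one of caffeine-plus arrays 1, 2 and 3 or caffeine-minus array 1 and 1 without caffeine-minus array 2. Rpl11 had only probe sets shared with Brf2 and is outside these counts. When every probe set was tested, these ran from -0.45 ± 0.10 (limma adjusted p = 0.0084) to 0.04 ± 0.04 (0.58). One at -0.35 ± 0.05 (limma adjusted p = 0.00087) passed as well, and the others did not.

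A further list held 28 other measured p53 targets. Of these 7 were higher, 7 lower and 14 did not pass, with a median difference of -0.03. The 14 called are 50% of the list, which lies between the 37.9% of all genes and the 62.6% of genes above the median level, where 21 of the 28 lay, so their count does not stand apart from the background. Gadd45a, a growth arrest and stress gene, was 3.87-fold higher (log2 difference 1.95 ± 0.09). Fbxw7, a ubiquitin ligase subunit, was 1.6-fold higher (0.68 ± 0.09), Bid, a BH3-only death protein, 1.77-fold lower (-0.82 ± 0.11) and Tap1, a peptide transporter of antigen presentation, 1.49-fold lower (-0.57 ± 0.08). Cdkn1a, the cell cycle inhibitor p21 and the best known p53 target, had only a probe set that it shares with 4930567H12Rik. That probe set read 10.08, 10.10 and 9.89 against 10.32, 10.16 and 10.14, with every caffeine-plus array below the others, and did not pass when every probe set was tested (-0.18 ± 0.08, limma adjusted p = 0.15).

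**Figure D4:**
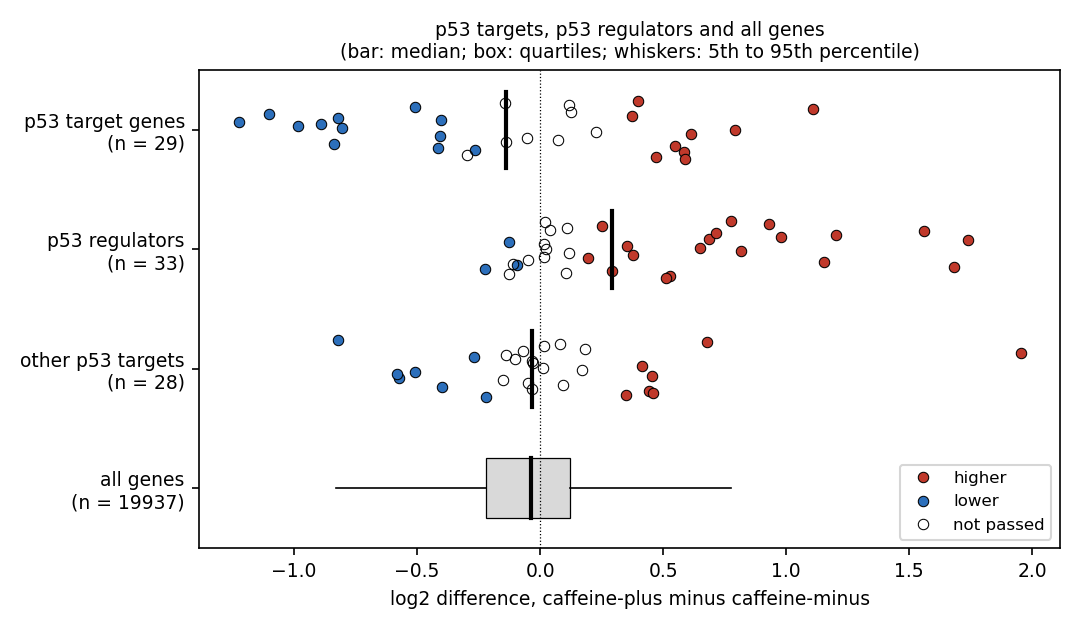
Log2 differences of the 29 p53 targets, 33 p53 regulators and 28 other p53 targets (points; filled where limma adjusted p is under 0.05), with the median of each list as a bar, above the median, quartiles and 5th to 95th percentile of 19937 genes. The regulators lie mostly to the right of 0 with a median of 0.29, and both lists of targets spread to either side with medians of -0.14 and -0.03.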

How the data were processed

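RNA from 6 granulocyte samples was extracted with Trizol and 300 ng of each was labelled with the Encore Biotin Module, per the labels' protocols. The deposited values are log2 expression values per probe set, read as such from their range of 1.90 to 13.98. Summarization, normalization and build: not given in the sources used here. Among 34760 probe sets, 21640 were annotated to 1 symbol, 1321 to several and 11799 to none listed. The brightest probe set stood for each of 19937 genes.

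The caffeine-plus and caffeine-minus arrays were contrasted in R 4.3.3 with lmFit and eBayes (with trend) of limma 3.58.1, p-values adjusted over all genes by Benjamini-Hochberg, threshold 0.05, 95% intervals unadjusted. The script was tested on simulated data. Values are relative between arrays, so a change in total mRNA per cell is not visible, and the number of arrays limits the precision. The genes and lists were chosen with earlier results of these data known. Named were all 29 genes, the 4 of each further list with the smallest p and the markers as levels. Coordinates and promoters are those of RefSeq (GRCm38.p6). The 16 alternatives covered normalization, dim-gene filters, probe set choice, the variance model, array weights, a replicate block and leaving out each array.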

Additional observations from a re-analysis of the deposited data

How the results depend on the processing

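There were 16 alternatives, and Phlda3, Zmat3, Fas, Eda2r and Tigar entered 15 of them, being too dim for the test of genes above the median level. In those each gene entered, 19 of the 21 called p53 target genes kept their direction and their call, the exceptions being Zmat3 and Dram1, and 5 of the 8 that did not pass kept that state and their direction, the exceptions being Fas, Perp and Trp53i11. The count of higher p53 targets ran from 9 to 10 and of lower ones from 10 to 13. The 3 lower p53 regulators became 1 after quantile normalization, 0 with arrays centred on their medians, 1 with every probe set tested and 1 without the intensity trend in eBayes. They ran from 0 to 3 when single arrays were left out. Trp53i11 turned to 0.0040 with arrays centred, and ran from -0.14 to 0.0095 when single arrays were left out. The replicate numbers were not taken to pair the samples, since deviations of same-numbered arrays correlated at -0.03, 0.19 and 0.29. With the replicate block, 10 p53 targets were higher and 13 lower, with Perp (limma adjusted p = 0.047) and Fas (0.020) added, and the lower regulators numbered 2. With 3 arrays a group, the differences of Tigar, Pmm1, Polk, Xpc, Eda2r and Trp53i11 could not be told from 0. Size alone did not decide this. In the main fit Rpl5 passed at -0.13 ± 0.04 (SE), while Tigar differed by 0.12 ± 0.12.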
